A study of Marchantia polymorpha with 9 samples.

Results

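Thalli of the liverwort Marchantia polymorpha labelled OX were compared with thalli labelled KO by RNA sequencing. The comparison was defined by the sample labels. It holds the 3 OX and the 3 KO libraries, 6 of the 9 libraries in the series, and every gene that passed a filter on low counts. The labels do not spell out the genotypes, which are read here as overexpression (OX), knockout (KO) and wild type (WT), as is usual in the field. The plants were Cambridge-strain males raised from gemmae, the small vegetative propagules of this species, and were harvested as whole thalli, the flat plant body, at 10 days. Growth was on agar at 22 °C with 16 h of light and 8 h of darkness per day. Each line had 3 biological replicates per the series' design text, so each genotype here is 1 line, and effects of genotype and of line cannot be told apart. The sources used here do not name the promoter of the OX transgene, the KO allele or the individual lines.

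The series is about MIXTA-type MYB transcription factors and the cuticle. MYB proteins are DNA-binding regulators found throughout land plants. In flowering plants MIXTA and its relatives promote outgrowth of epidermal cells and the synthesis of the cuticle, the layer of cutin and wax that seals the plant surface against water loss. The comparison of OX with KO sets the genotypes labelled as overexpression and knockout directly against each other. The targeted gene could not be located in the table, since its ID is not given in the sources at hand. The labels could therefore not be checked against its level, and no gene below carries a function. In whole thalli, fewer cells of a type and less RNA per cell cannot be told apart.

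The 6 libraries held between 53250950 and 57696744 counts. All values in the deposited table were even, so a read pair appears to be counted as 2. On that reading, the libraries held between 26625475 and 28848372 pairs. Between 12354 and 12504 genes had a level over 1 CPM, that is counts scaled to one common library size, in a library. Libraries of a genotype correlated at 0.992 to 0.994 on the log2 CPM scale. The first principal component of the 6 libraries carried 77.2% of the variance. OX libraries scored -48.9 to -36.3 on it, against 43.5 to 44.3 for KO libraries. OX replicate 2 lay nearest to KO.

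OX and KO thalli differed in 5174 of 14518 genes tested (35.6%), with 2429 higher in OX (16.7%) and 2745 lower (18.9%). Here and below, a gene differed if its Benjamini-Hochberg adjusted p was under 0.05 in edgeR's quasi-likelihood test, and levels are CPM scaled by TMM factors (trimmed mean of M-values). Most of the differences were small. The median absolute log2 fold change was 0.40 among the genes higher in OX and 0.54 among those lower. A difference of 2-fold or more was seen in 1209 genes (8.33% of those tested), with 460 higher in OX (3.17%) and 749 lower (5.16%). At 4-fold or more the counts were 145 and 268, and at 16-fold or more 26 and 91. The balance over all differing genes depended on scaling. Library size alone gave 3677 genes higher in OX and 2181 lower. Among the differences of 2-fold or more, there were more lower than higher genes under each of the 4 scalings tried.

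The libraries of the genotypes stood apart in nearly all differing genes, which choosing genes by the test largely brings about. The 3 OX libraries did not overlap with the 3 KO libraries in 7236 genes (49.8% of those tested). Of the 5174 differing genes, 5127 showed no overlap. Of the genes at least 2-fold higher in OX, 457 of 460 showed no overlap, and of those at least 2-fold lower, 746 of 749. In 270 of the higher and 402 of the lower genes, each of the 9 pairings of an OX with a KO library differed by at least 2-fold. The 749 lower genes summed to 4367, 4996 and 4701 CPM in the OX libraries, against 12682, 13398 and 13402 CPM in the KO libraries. The 460 higher genes summed to 13858, 13187 and 13929 CPM in OX, against 3715, 3915 and 3840 CPM in KO. The 460 higher genes thus summed in OX to about what the 749 lower genes did in KO, to between 12682 and 13929 CPM in each library.

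**Figure D1:**
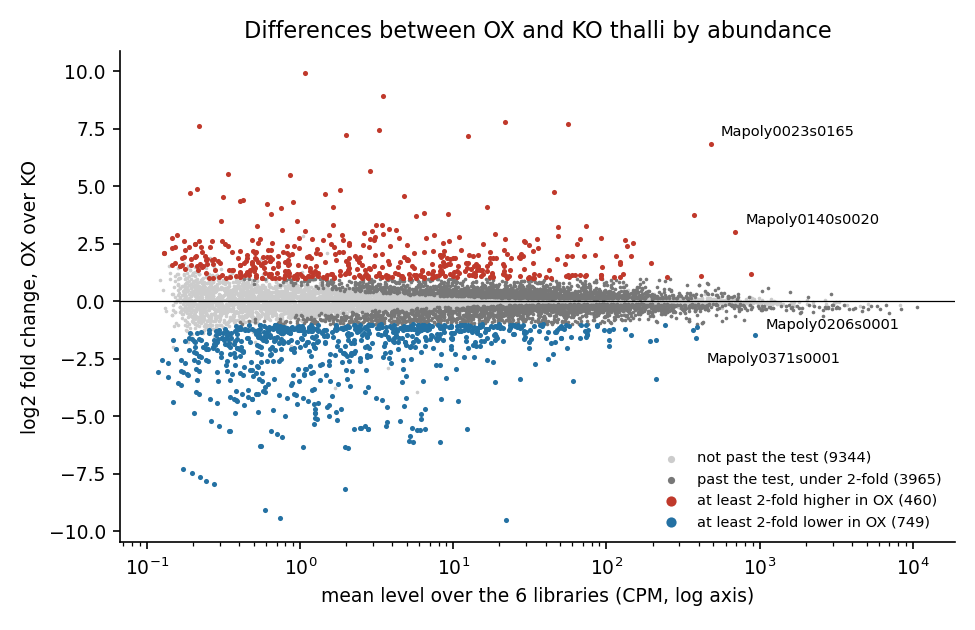
Log2 fold change of OX over KO (vertical axis) against the mean level over the 6 libraries (CPM, log axis), with 1 point per gene tested. Of the 14518 genes, 460 were at least 2-fold higher in OX (red) and 749 at least 2-fold lower (blue); the 4 genes with the largest differences in level are named.

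Among genes that differed at least 2-fold without overlap of their libraries, the largest excess of OX over KO in level was that of Mapoly0140s0020. It had 1238, 1178 and 1270 CPM in the OX libraries, against 140, 160.1 and 160.5 CPM in the KO libraries. The means were 1228 ± 47.0 CPM in OX and 154 ± 11.6 CPM in KO (SD, n = 3 each). Its log2 fold change was 3.0 ± 0.065 (SE) with an adjusted p of 2.20e-08 in edgeR's quasi-likelihood test. By level, it ranked 79 among the genes tested in OX and 1191 in KO. The WT libraries, which entered no test and were scaled with all 9 libraries together, had 752, 716 and 750.1 CPM, so the gene lay below its WT level in every KO library and above it in every OX library. This gene alone made up 10.9% of the summed excess of the 460 higher genes.

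The second largest excess was that of Mapoly0023s0165, with 1001, 912 and 934 CPM in OX libraries, against 9.09, 8.63 and 6.998 CPM in KO libraries. The OX mean was 115-fold the KO mean (log2 fold change 6.85 ± 0.10, SE, adjusted p = 5.40e-09 in edgeR's quasi-likelihood test). It ranked 109 by level in OX and 9675 in KO. WT libraries had 11.5, 10.95 and 9.11 CPM. The OX libraries stood far apart, and the ranges of KO and WT nearly met.

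The largest excess of KO over OX was that of Mapoly0206s0001. It had 437, 534.8 and 530.1 CPM in OX libraries, against 1277, 1403 and 1444 CPM in KO libraries. The means were 501 ± 55.4 CPM in OX and 1375 ± 86.6 CPM in KO (SD, n = 3 each). Its log2 fold change was -1.46 ± 0.084 (SE), with an adjusted p of 5.02e-06 in edgeR's quasi-likelihood test. WT libraries had 689, 875 and 845 CPM, between the other genotypes without overlap. Mapoly0371s0001 was next, with 189, 206 and 176 CPM in OX libraries, against 579, 602 and 553 CPM in KO libraries. Its log2 fold change was -1.60 ± 0.063 (SE, adjusted p = 6.23e-07 in the same test), and WT libraries had 358, 318 and 289 CPM. All 4 genes had WT levels between those of OX and KO with no overlap of libraries. For Mapoly0023s0165 the margin between WT and KO was narrow, and the gene was high in OX alone.

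**Figure D2:**
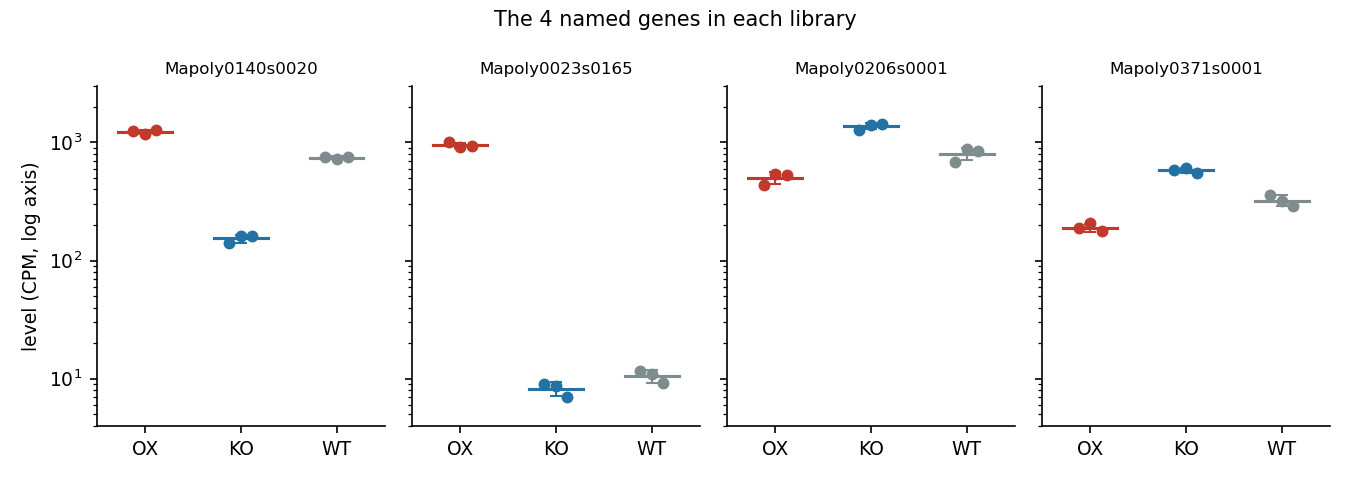
Level of the 4 named genes in each library (CPM, log axis), with OX left, KO in the middle and WT right. Points are libraries, and lines with bars are the mean ± SD of 3. Mapoly0023s0165 stands at 949 CPM in OX against 8.24 CPM in KO. WT lies between OX and KO for all 4 genes, close to KO for Mapoly0023s0165.

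The larger differences were mostly in genes of low abundance. The genes tested were split by mean level into 5 groups of equal size. In the group of lowest abundance, at most 2.18 CPM, 7.61% were at least 2-fold higher and 13.8% at least 2-fold lower in OX. In the group of highest abundance, above 71.5 CPM, the shares were 0.930% and 0.826%. Lower genes outnumbered higher ones in each group but the most abundant. Some of the differing genes were tested only because they were high in 1 genotype. In 67 of the 460 higher genes the KO libraries all lay under the filter's limit of 0.174 CPM, and in 117 of the 749 lower genes the OX libraries did. Such genes had to differ to be tested. The filter left out 4769 of the 19287 gene IDs, of which 977 had no count in the 6 libraries.

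**Figure D3:**
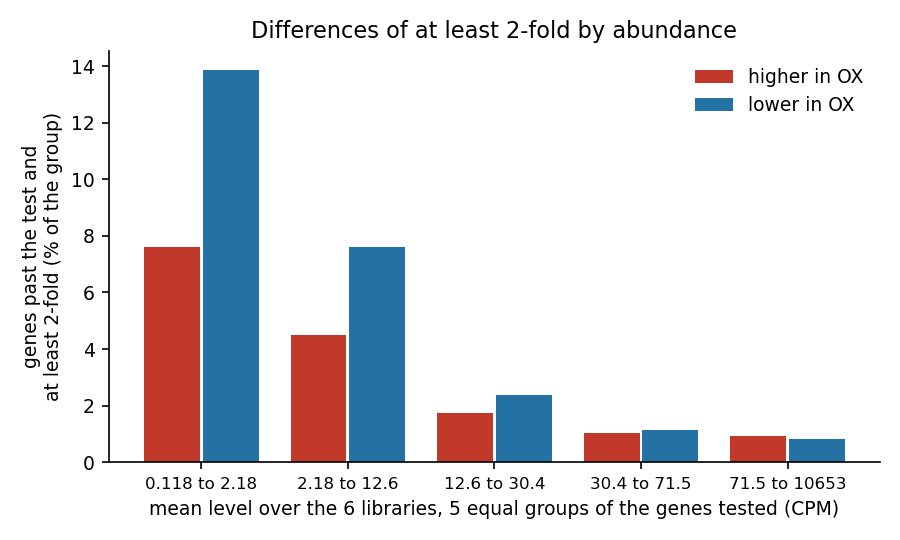
Share of genes (%) that passed the test and differed at least 2-fold, for 5 equal groups of the genes tested, ordered by mean level over the 6 libraries (CPM). Bars are genes higher in OX (red) and lower in OX (blue); the shares fall from 7.61% and 13.8% in the group of lowest abundance to 0.930% and 0.826% in that of highest.

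Most of the abundant transcripts that differed were lower in OX, by small amounts. Of the 100 genes with the highest level in either genotype, 54 were lower in OX, 7 were higher and 39 did not pass the test. A difference of at least 2-fold was seen in 2 of the higher and 1 of the lower genes. Among all genes tested, the shares lower and higher were 18.9% and 16.7%. The levels of these 100 genes summed to 23.5% of the CPM scale in OX and 26.9% in KO. These are not shares of a library, since libraries scaled by TMM do not sum to one common total. The TMM factors were 1.02 to 1.03 in OX and 0.957 to 0.986 in KO, which widens the gap between the percentages. Of the 10 most abundant, 8 were lower in OX and none was higher, and no log2 fold change among them exceeded 0.49 in size. The 10 most abundant genes of each library took 6.53%, 6.26% and 6.41% of its counts in OX, against 7.26%, 7.43% and 7.17% in KO, with no overlap. Across all 16 other settings tried, between 47 and 63 of the 100 genes were lower and between 7 and 9 higher in OX.

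Genes with no read pair in a genotype and clear counts in the other were few. They are named here after their values were seen. Only 3 genes had no read pair in the OX libraries and at least 10 pairs in every KO library. Mapoly0169s0030 had 0 pairs in OX, against 45, 37 and 43 pairs in KO, and 0 in WT. It was at least 40.6-fold lower in OX, taking 3 pairs over the 3 OX libraries as the limit that a count of 0 allows. Mapoly0251s0004 had 0 pairs in OX, against 31, 38 and 30 in KO, and at most 1 in a WT library. Mapoly2566s0001 had 0 pairs in OX, against 17, 15 and 14 in KO, and at most 1 in a WT library. These 3 transcripts were at or near 0 in WT as well as in OX. In the other direction MapolyY_A0055, with a Y-chromosome ID, had 73, 54 and 56 pairs in OX, against 0 in KO, and 47, 35 and 33 in WT. It was at least 62.6-fold higher in OX by the same limit. These genes were chosen for their counts of 0, so no p-value is given for them.

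These counts moved with single libraries, most of all with OX replicate 2. Without OX replicate 2, 25 genes rather than 3 had no pair in OX and at least 10 in every KO library, and without OX replicate 1 or KO replicate 2 there were 5. Genes with no pair in KO and at least 10 in every OX library numbered 4 without KO replicate 1 and 2 without OX replicate 3 or KO replicate 3, rather than 1. The genes at least 4-fold lower in OX summed to 214 CPM in OX replicate 1, 261 CPM in replicate 2 and 220.4 CPM in replicate 3, against 1882, 1952 and 1902 CPM in the KO libraries. Of these 268 genes, 132 had their highest OX level in replicate 2, 63 in replicate 1 and 66 in replicate 3, with 7 tied. OX replicate 2 thus carried more of the transcripts that are low in OX. Whether this reflects the plants or the library was not tested. In the 145 genes at least 4-fold higher in OX, the KO library with the highest level was replicate 1, 2 and 3 in 34, 56 and 53 genes.

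The WT libraries show on which side of the reference each difference lay. They entered no test here, and the genes were chosen for a difference between OX and KO. Positions compare the means alone, with no margin for the spread of libraries. A WT mean barely above that of KO thus counts as above both, and a difference between WT and KO was not tested. Among the 460 genes at least 2-fold higher in OX, the WT mean lay between OX and KO in 395 (85.9%). It lay above both in 30 and below both in 35. The genes at least 2-fold lower in OX were placed differently. The WT mean lay between OX and KO in 402 of 749 (53.7%) and above both in 299 (39.9%), with 48 below both. In those 299 genes the medians were 0.460 CPM in OX, 2.51 CPM in KO and 3.67 CPM in WT. The WT mean was nearer to KO than to OX on the log scale in 541 of the 749 lower genes (72.2%) and in 212 of the 460 higher genes (46.1%). For this, 0.1 CPM was added to each mean, which weighs most at the lowest levels, and other added values were not tried. At 4-fold or more, WT lay above both in 128 of 268 lower genes and between in 127 of 145 higher genes.

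Genes that differed often had a neighbour that differed in the same direction. A gene ID holds a scaffold number and a gene number along the scaffold, and neighbours are taken here as consecutive tested IDs of a scaffold. Of 643 genes at least 2-fold lower in OX that had a next neighbour, 196 (30.5%) had a neighbour that was also at least 2-fold lower. Among all tested genes with a next neighbour, 4.60% of the neighbours were. For genes higher in OX the share was 64 of 431 (14.8%), against 3.09% of the neighbours of all tested genes. Beside genes of low abundance that were not called, at most 12.6 CPM, the shares were close to those of all tested genes, with 4.32% of the next genes lower and 3.06% higher. Those genes were not matched in level to the called ones. Medians were 0.635 CPM in OX and 2.95 CPM in KO for the lower genes, and 3.72 and 0.967 CPM for the higher genes. Neighbours in the opposite direction were near the background, at 3.73% (24 of 643) beside lower genes and 5.80% (25 of 431) beside higher genes.

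The share fell with distance. Beside a gene lower in OX, 17.3% of genes 2 steps away were lower, 11.9% at 3 steps, 5.58% at 5 steps and 3.97% at 20 steps. For higher genes the shares were 7.48%, 5.87%, 4.73% and 1.61% at the same distances. Across all 16 other settings, the share of next neighbours was 26.7% to 30.9% for lower and 13.3% to 16.4% for higher genes. The lowest of each came with no filter on low counts. In the main fit some called genes had to differ to be tested, 117 of the 749 lower and 67 of the 460 higher. They count here and in the runs below, and nothing was recomputed with them left out. All these shares are across genes, which are not independent replicates. Neighbouring IDs can be copies of a gene that share reads, which the IDs do not show.

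**Figure D4:**
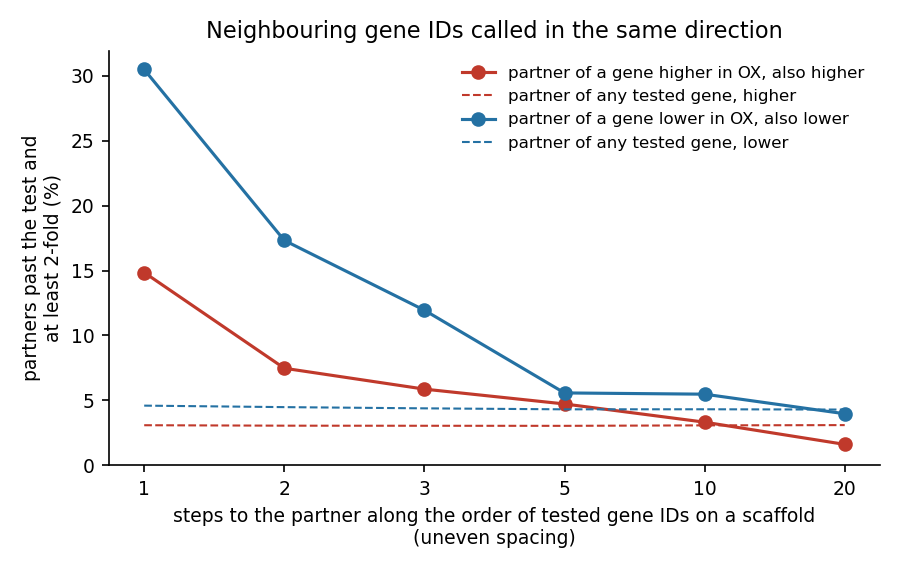
Share of genes (%) at a given number of steps along a scaffold from a gene that differed at least 2-fold, which differed at least 2-fold in the same direction (solid lines), for genes higher in OX (red) and lower in OX (blue). Dashed lines give the same share for the partners of all tested genes; the solid lines start at 14.8% and 30.5% at 1 step and come near the dashed lines by 5 to 10 steps.

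Several runs of neighbouring genes stood out. There were 41 runs of at least 3 consecutive tested genes at least 2-fold lower in OX, with 157 genes on 38 scaffolds, and 8 such runs of higher genes, with 29 genes. The longest held 11 genes on scaffold 27, numbered 161 to 172 along it. Together they had 2.58, 6.01 and 3.35 CPM in the OX libraries, against 83.5, 96.3 and 88.2 CPM in the KO libraries. The WT libraries had 4.73, 7.70 and 11.6 CPM. The run was thus high in KO and low in OX and WT, the KO mean being 22.4-fold the OX mean. Each of the 11 genes showed no overlap between OX and KO. In the genes numbered 170 to 172 all OX libraries lay under the filter's limit of 0.174 CPM, so these had to differ to be tested. Log2 fold changes of the 11 genes ran from -5.60 to -2.23, with adjusted p-values of at most 0.00371 in edgeR's quasi-likelihood test. In 4 of them the WT mean lay below the OX mean, and in 7 it lay between OX and KO.

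By definition, a run ends at a tested gene that was not called at least 2-fold lower. The tested gene just before this run had a log2 fold change of 0.10 and the one just after it 0.32. The one ID inside the run that was not tested had 36 pairs over the 6 libraries. On the whole of scaffold 27, 18 of 152 tested genes (11.8%) were at least 2-fold lower in OX, 11 of the 18 being those of the run. Another 7 (4.61%) were at least 2-fold higher, and the median log2 fold change was -0.06. Among all genes tested, the shares lower and higher were 5.16% and 3.17%. Without OX replicate 1 or OX replicate 2, the longest run of lower genes anywhere held 7 genes.

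**Figure D5:**
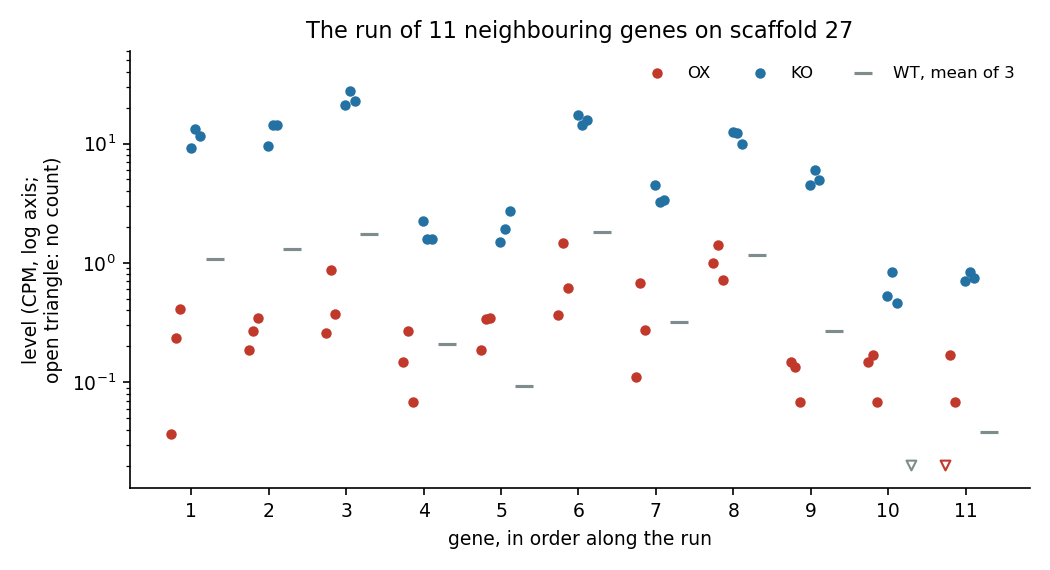
Level of the 11 tested genes of the run on scaffold 27, in order along the scaffold (CPM, log axis). Points are libraries of OX (red) and KO (blue), grey bars are the WT mean of 3 libraries, and open triangles mark no count. Every KO point lies above every OX point of its gene. The low-count filter required this for the genes numbered 170 to 172 along the scaffold, the last ones shown. The summed level was 3.98 CPM in OX against 89.3 CPM in KO.

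In 4 of the 6 runs of at least 5 lower genes, the WT mean lay above the KO mean. Over 5 tested genes numbered 23 to 32 on scaffold 185, the summed level was 0.996, 1.55 and 0.581 CPM in OX libraries, against 23.0, 18.6 and 21.1 CPM in KO libraries. WT libraries had 40.5, 39.5 and 30.3 CPM there. On scaffold 196, 7 of 8 tested genes were at least 2-fold lower in OX and 1 was at least 2-fold higher. Among all genes tested, 5.16% were at least 2-fold lower and 3.17% at least 2-fold higher. The 6 lower genes of scaffold 196 that form a run summed to 7.82, 10.1 and 8.44 CPM in OX libraries, against 43.0, 36.6 and 42.1 CPM in KO libraries. WT libraries had 57.3, 57.4 and 50.4 CPM. On scaffold 62 the summed means of 5 genes were 13.2 CPM in OX, 50.5 CPM in KO and 86.2 CPM in WT. On scaffold 143 those of 5 genes were 17.3, 47.5 and 62.1 CPM in the same order. There 1 gene held 78.0% of the summed level, against at most 46.1% in the other runs of at least 5 lower genes. On scaffold 85, a run of 6 genes had 28.2 CPM in OX, 62.5 CPM in KO and 53.6 CPM in WT. All 6 runs of at least 5 lower genes had their lowest mean in OX, and KO and WT changed places between them.

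Runs of genes higher in OX were shorter, with 5 runs of 4 genes as the longest. On scaffold 88, genes 32 to 35 summed to 216, 211 and 229 CPM in OX libraries, against 39.4, 37.99 and 38.1 CPM in KO libraries, with 108, 109 and 113 CPM in WT libraries. On scaffold 117, the 4 tested genes numbered 36 to 44 summed to 7.01, 6.15 and 8.71 CPM in OX libraries, against 0.495, 0.544 and 0.601 CPM in KO libraries. WT libraries had 2.57, 2.90 and 3.67 CPM. In both runs the 3 genotypes did not overlap, with OX highest and KO lowest. The most abundant gene held 71.8% of the summed level of the run on scaffold 88 and 41.7% on scaffold 117. On scaffold 76, 1 gene held 99.0% of the summed level of its run, so that run is in effect a single abundant gene beside 3 rare ones. The runs were described after their values were seen.

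Genes with Y-chromosome IDs come from the chromosome that only male plants carry. Of 113 such IDs in the table, 33 were tested, of which 10 were higher in OX, 1 lower and 22 not called. Their median log2 fold change was 0.15, against 0.00 over all genes tested, where 16.7% were higher and 18.9% lower. Apart from MapolyY_A0055 and MapolyY_A0046, the called genes differed by less than 2-fold. MapolyY_A0055, among the 10 higher, had no pair in KO and so had to differ to be tested. The level of MapolyY_A0046 was 0.718 ± 0.21 CPM in OX thalli and 0.285 ± 0.060 CPM in KO thalli (SD, n = 3 each). The lower gene, MapolyY_B0048, had a level of 8.60 ± 0.27 CPM in OX thalli and 10.4 ± 0.71 CPM in KO thalli. Without any 1 of the OX libraries, KO replicate 1 or KO replicate 3, 0 genes of the list were lower, and without KO replicate 2 there were 2. The counts depended on scaling too, with 17 higher and 0 lower by library size alone.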

How the data were processed

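Each sample was RNA from about 100 mg of thalli, per the labels' protocols. The deposited table holds raw counts per gene, made by the authors for version 3.1 gene models, per the row names. The submitters' processing notes name STAR 2.5.1b and featureCounts 1.5; the settings, use of strand and build were not given in the sources used here. All 173583 values were even, so pairs are taken as counts divided by 2. The table held 0 columns of other samples. None of its IDs matched the name table of assembly MpTak2_v7.1 (0 of 19287), so no function, coordinate or sequence is given, and gene lists by product name could not be used. IDs are printed without their version ending.

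Counts as deposited from the 6 OX and KO libraries were filtered with filterByExpr, scaled by TMM and fitted with edgeR 4.0.16 (glmQLFit, glmQLFTest) in R 4.3.3, with adjustment over all genes tested. Standard errors were derived from the F statistics. WT levels were scaled with all 9 libraries together. The fit was run on simulated counts with known changes in 200 genes over 1 CPM. Those counts used the spread that the fit had estimated, so they check the calculation and not that spread. A count of 0 allows up to 3 pairs, which covers counting error only. Replicates differed by 6.25 to 14.4 chi-square units per degree of freedom, so none were merged. All library names share a prefix, and the labels do not say whether it marks a flow cell or lane. The design text calls the replicates biological, and the p-values cover the spread between samples of 1 line.

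The text names, in each direction, the 2 genes with the largest difference in mean CPM among those that passed the test, differed at least 2-fold and did not overlap. The comparison, this rule and the lists were chosen with earlier results of these data known.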

Additional observations from a re-analysis of the deposited data

How the results depend on the processing

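Counts of differing genes were recomputed under other scalings (DESeq2 size factors, upper quartile, library size alone), filters, tools (DESeq2 1.42.0, limma-voom from limma 3.58.1), all 9 libraries in the fit, halved counts and each library left out; settings for the 100 most abundant genes and for neighbours were chosen after seeing the data. For 7 genes DESeq2 gave no adjusted p. Halved counts left 13720 genes tested, of which 1091 differed at least 2-fold, 413 higher and 678 lower in OX. The totals stayed within 1.5 times, from 3893 genes without KO replicate 2 to 6530 with a replicate block, and from 827 (at least 1 CPM in at least 3 libraries) to 1256 (all 9 libraries) at 2-fold or more. With library size alone 3677 genes were higher, where TMM gave 2429; 17 Y-chromosome IDs were then higher and 0 lower. The single lower Y-chromosome ID became 2 with a minimum of 1 CPM, DESeq2 or limma-voom, 3 with the replicate block, and 0 to 2 with a library left out, where 7 to 11 were higher. With a minimum of 3 pairs, 13 genes had no pair in OX and 6 none in KO; leaving out a library gave 3 to 25 and 1 to 4. Leaving out a library gave 3893 to 4730 genes, with fewer libraries in the fit. All 64 refits of the 4 named genes kept their direction and passed the test. For the moves above, the cause was not tested.

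Same-numbered OX and KO libraries deviated from their genotype means with correlations of 0.15, -0.0026 and 0.17. Between differing numbers the correlations ran from -0.17 to 0.021. On the second principal component (7.44% of the variance), replicate 1 scored 17.5 in OX and 18.1 in KO. Replicate 2 scored -5.66 and 0.16, and replicate 3 -13.0 and -17.1, in the same order. The main fit took no pairing from the numbers. Whether same-numbered libraries share a batch was not tested. The replicate block raised the count to 6530 genes, 5138 of them among the 5174.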

Other observations

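Transcripts seen in 1 library only were rare. Just 3 of the 19287 gene IDs had at least 50 pairs in a library and at most 5 in each of the 8 others, and none passed the low-count filter. Mapoly0006s0059 had 139 pairs in OX replicate 1 and at most 4 elsewhere. Mapoly0057s0015 and Mapoly0071s0035 had 169 and 52 pairs in WT replicate 3 and at most 2 and 3 elsewhere. These limits and IDs were chosen after seeing the data.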
